A study of Drosophila melanogaster with 24 samples.

Results

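The 9 genes described here encode heat shock proteins and chaperones of Drosophila melanogaster: Hsp22, Hsp23, Hsp26, Hsp27, Hsp67Ba, Hsp67Bc, Hsp68, Hsp83 and Hsc70-4. They were chosen by name, with earlier results of these data known, out of 13922 protein-coding genes on the main chromosome arms. Counts over the 9 beside those over all genes may therefore reflect the choice. Every peak that touched a gene's span or the 5 kb on either side was taken as lying in its window. A group of 6, those named from Hsp22 to Hsp67Bc, lies close together on 3L as the small heat shock cluster. Windows of neighbours there overlap and share peaks. The 9 genes thus stand for 4 separate places in the genome: the cluster, Hsp68, Hsp83 and Hsc70-4.

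Chaperones bind unfolded proteins and help them fold or keep them from clumping. Heat and other stress activate heat shock factor, which binds upstream of the inducible genes and releases polymerase that waits near their starts. Small heat shock proteins hold unfolding proteins without using ATP, Hsp68 is an inducible relative of the Hsp70 proteins, Hsp83 is the fly Hsp90, and Hsc70-4 is the Hsc70 protein that cells make without stress. Insulators block an enhancer from acting on a promoter beyond them or mark off chromatin domains, and the scs elements, among the earliest described, flank a pair of fly Hsp70 genes.

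Kc167 cells, a female line derived from embryos, received 12 µg of dsRNA targeting Isha by nucleofection and were incubated for 5 days (Isha knockdown), or were mock treated. No heat shock is named in the labels, so all values below are from cells without a stated stress. Chromatin was precipitated with antisera against Isha, the zinc finger protein Su(Hw), which recognises gypsy-type insulators, and CP190 and Mod(mdg4)67.2, which join Su(Hw) in insulator complexes, and was sequenced. The stated questions were how far Isha overlaps with the other 3 proteins along the genome, and whether those proteins need Isha to stay on chromatin. There were 24 libraries, 2 replicates in each of 12 groups, inputs included. In each treatment the labels name inputs for Isha apart from the other inputs. The labels give a different Isha antiserum for each Isha replicate and do not say if a replicate is a culture of its own. The data used were 8 peak lists with positions in dm6 and no score, 1 per antibody and treatment. Each list was read as joining both replicates, so no difference between knockdown and mock cells below has a replicate check or a p-value.

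The list for the targeted protein held 932 Isha peaks in knockdown cells and 4735 in mock cells. For Su(Hw) the lists held 4711 and 4900 peaks in knockdown and mock cells, for CP190 8880 and 8193, and for Mod(mdg4) 1091 and 1305. Depth is unknown, and a peak that is missing from a knockdown list may be weaker rather than gone.

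After Isha knockdown CP190 was still listed at all 9 genes and Isha at 2 of them, Hsp68 and Hsp83, while mock cells had both proteins at all 9. An Isha peak lay within 5 kb of 2 of 9 genes in knockdown cells and of 9 of 9 in mock cells, where 22.9% of all protein-coding genes had one in knockdown cells and 61.2% in mock cells. Thus 7 of the 9 genes had Isha in reach in mock cells and not in knockdown cells, as did 62.8% of all genes with a mock Isha peak. CP190 was within 5 kb of 9 of 9 genes in knockdown cells and 9 of 9 in mock cells, against 80.7% and 79.1% of all genes. None of the 9 was left without CP190, and 1.70% of all genes with a mock CP190 peak were. Su(Hw) was in reach of 5 of 9 genes in knockdown cells and 1 of 9 in mock cells, with 36.8% and 38.6% of all genes. Mod(mdg4) was in reach of 1 of 9 genes in knockdown cells and none in mock cells, with 14.0% and 15.1% of all genes.

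**Figure D1:**
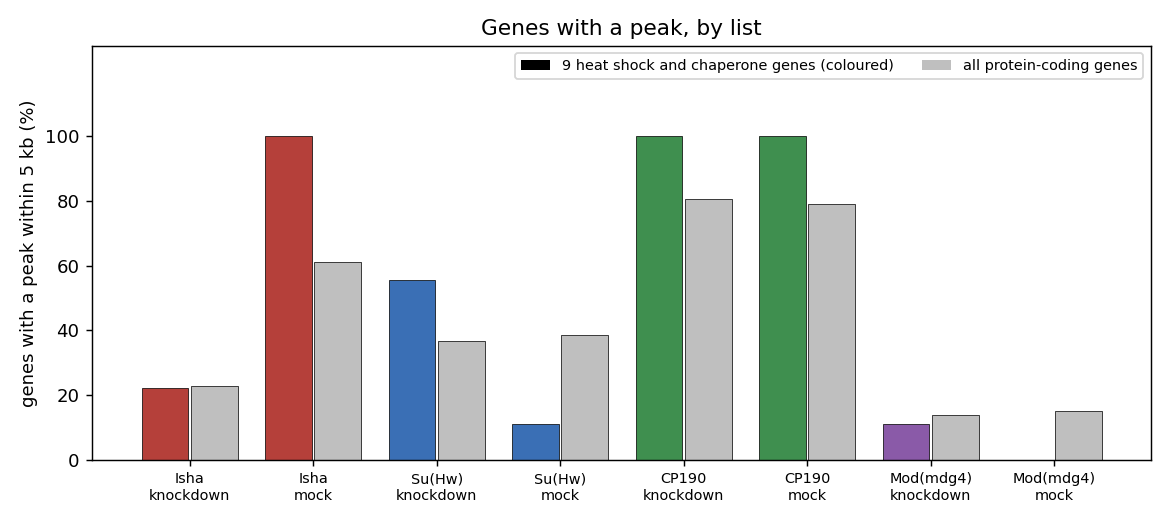
Percent of genes with at least 1 peak within 5 kb, for the 9 heat shock and chaperone genes (coloured bars) and all 13922 protein-coding genes (grey bars), in each of the 8 peak lists. Isha reached 2 of the 9 genes in knockdown cells and all 9 in mock cells, while CP190 reached all 9 in both; 6 of the 9 genes share peaks.

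Counted per gene, with shared peaks counted again for each neighbour, the members had more mock Isha and CP190 peaks in reach than the average gene. They had fewer mock peaks of Su(Hw) and Mod(mdg4). In knockdown cells the Su(Hw) mean was 0.667 against 0.607 over all genes, and the Mod(mdg4) mean 0.111 against 0.169. For Isha the knockdown means were 0.333 and 0.298, and for CP190 2.33 and 1.84. In mock cells a member had on average 3.33 Isha and 2.44 CP190 peaks, against 1.33 and 1.71 over all genes. The mock means for Su(Hw) and Mod(mdg4) were 0.222 and 0, against 0.640 and 0.190. At least 3 mock Isha peaks lay within 5 kb of 7 of the 9 genes, against 20.5% of all protein-coding genes, and Hsp22 had the most with 5. At least 2 CP190 peaks lay within 5 kb of 7 of the 9 genes in knockdown cells and of 9 in mock cells, against 54.7% and 51.3% of all genes. Mock Isha peaks covered between 15.8% (Hsp27) and 58.8% (Hsp22) of a window, with a median of 52.1% over the 9 genes and 10.2% over all genes. For CP190 the median covered share was 21.2% in knockdown cells and 32.3% in mock cells, against 13.1% and 14.5% over all genes. Windows around longer genes are longer, and neighbours share peaks, so these means, counts and shares are descriptions of 4 places and carry no test.

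**Figure D2:**
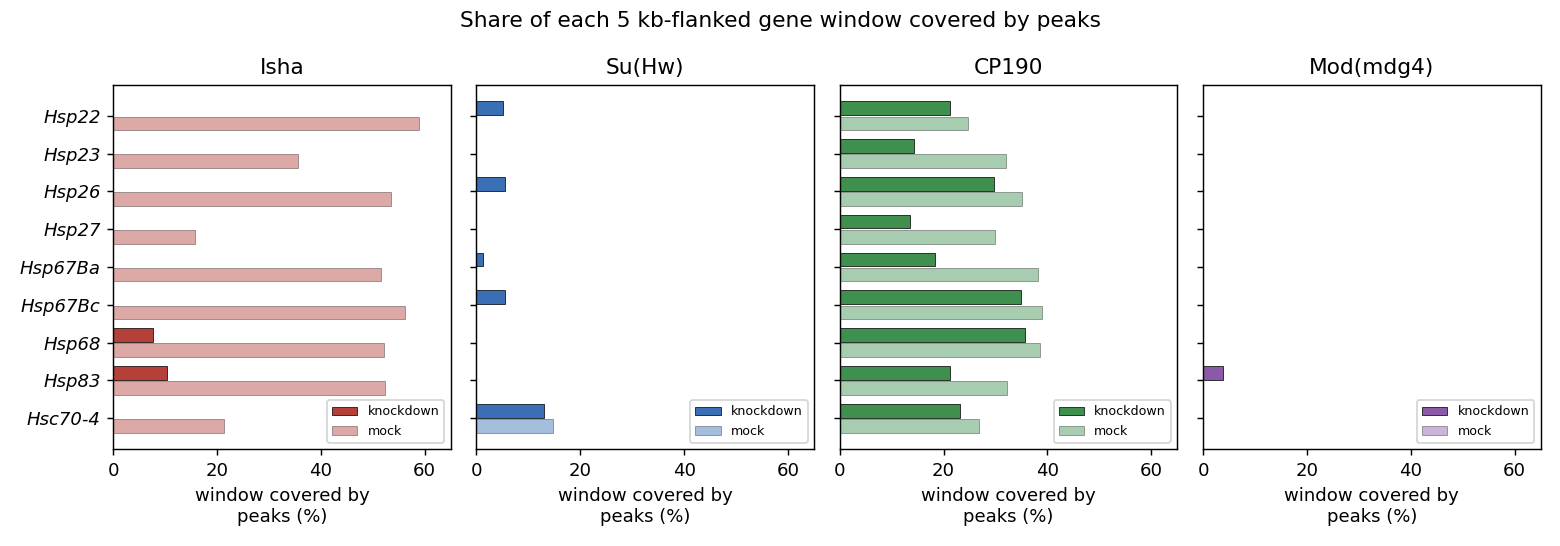
Percent of each gene's window (the gene and 5 kb on either side) that peaks covered, by protein, with the knockdown list (dark) above the mock list (pale) for each gene. Isha covered 15.8 to 58.8% of the windows in mock cells and was left only at Hsp68 and Hsp83 in knockdown cells, while CP190 covered 13.4 to 35.7% in knockdown cells and 24.7 to 39.0% in mock cells.

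The small heat shock cluster lies at 3L:9371511-9385694 and spans 14184 bp. From the lower coordinate upward its members are Hsp67Bc (9371511 to 9372497), Hsp22 (9372931 to 9374964), Hsp26 (9376418 to 9377427), Hsp67Ba (9377802 to 9379534), Hsp23 (9381882 to 9382765) and Hsp27 (9384063 to 9385694). Hsp67Bc takes part in the clearance of misfolded proteins by autophagy, Hsp22 works in mitochondria, Hsp23 and Hsp26 in the cytosol and Hsp27 in the nucleus. The gene annotation gave spans without strand or exons, so starts and ends of transcripts, exons and introns are not told apart here. CG4456, whose older name is Hsp67Bb, overlaps Hsp22, and CG4461 lies between Hsp22 and Hsp26.

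Within the cluster windows no Isha peak was listed in knockdown cells, against 6 in mock cells, and those 6 covered 39.0% of the 24184 bp. In mock cells 1 peak (9373490 to 9376150, 2661 bp) ran from Hsp22 into CG4461, 1 lay on Hsp26 (9376603 to 9377565) and 1 covered all of Hsp67Ba (9377713 to 9379978). Another lay inside Hsp27 (9384375 to 9385299). The remaining 2, at Klp67A and CG4452 (9366017 to 9368271) and at CG4452 and Fdx1 (9370059 to 9370923), lay on neighbouring genes. Hsp67Bc and Hsp23 thus had no mock Isha peak on the gene itself, with the nearest 587 bp and 1609 bp away. After knockdown the nearest Isha peak was between 16.3 kb (from Hsp27) and 29.5 kb (from Hsp67Bc) away, against a median of 40.4 kb over all protein-coding genes.

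Of the 6 mock Isha peaks, 3 lay in the longest stretch of the cluster without CP190. Between the CP190 peak at Hsp67Bc and Hsp22 (9372071 to 9373800) and that at Hsp23 (9380529 to 9382192), 6728 bp held no mock CP190 peak, and Isha peaks covered 82.9% of that stretch. Of the other stretches between mock CP190 peaks, the one of 2768 bp at CG4452 was covered to 35.4% and those of 186 and 324 bp held no Isha peak. The stretch of 6728 bp holds Hsp26 and Hsp67Ba, the only members of the cluster with no CP190 peak on the gene in either treatment. The Isha peak at Hsp22 shared 311 bp with the CP190 peak beside it, the one at Hsp67Ba stopped 550 bp short of the next CP190 peak, and the one in Hsp27 began 36 bp after the last. In knockdown cells the stretch between these CP190 peaks was 7205 bp long and held no peak of any of the 4 proteins.

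CP190 had 4 peaks in the cluster windows in knockdown cells and 5 in mock cells. Those kept were at Klp67A and CG4452, at Fdx1 and Hsp67Bc, at Hsp67Bc and Hsp22, and at Hsp23. At Hsp22 the upper edge of the kept peak, which faced the Isha peak, fell by 408 bp, to 9373392 in knockdown cells against 9373800 in mock cells, while its lower edge moved by 23 bp. At Fdx1 and Hsp67Bc it was otherwise: the lower edge, inside a mock Isha peak, moved by 6 bp and the upper edge fell by 102 bp. Whether CP190 edges follow Isha was not tested. The mock peak from Hsp23 to Hsp27 (9382517 to 9384338, 1822 bp) had no counterpart in knockdown cells, where the nearest CP190 peak ended 356 bp below it. It was wider than 74.2% of all mock CP190 peaks. Among the cluster genes CP190 was listed on Hsp22, Hsp23 and Hsp67Bc in knockdown cells, against those 3 and Hsp27 in mock cells.

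Su(Hw) was listed in the cluster in knockdown cells only. The peak (9372332 to 9372942, 611 bp) reached from Hsp67Bc to the lower end of Hsp22 and lay wholly inside the knockdown CP190 peak there. It alone accounts for Su(Hw) at Hsp22, Hsp26, Hsp67Ba and Hsp67Bc, the 4 of 8 genes that had no mock Su(Hw) peak and had one after knockdown, against 2.33% of all such genes. At 611 bp it was wider than 4.71% of the peaks in the knockdown Su(Hw) list, and the median width of Su(Hw) peaks found in that treatment only was 625 bp. The knockdown Su(Hw) list was recognised from a misspelt name, as the only antibody otherwise without one. In mock cells the nearest Su(Hw) peak was 13.8 kb (Hsp67Bc) to 26.4 kb (Hsp27) away, against a median of 8.69 kb over all genes. Mod(mdg4) was far from the cluster, with the nearest peak at least 85.0 kb away in knockdown cells and 84.9 kb in mock cells, against medians of 41.0 and 37.6 kb over all genes.

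**Figure D3:**
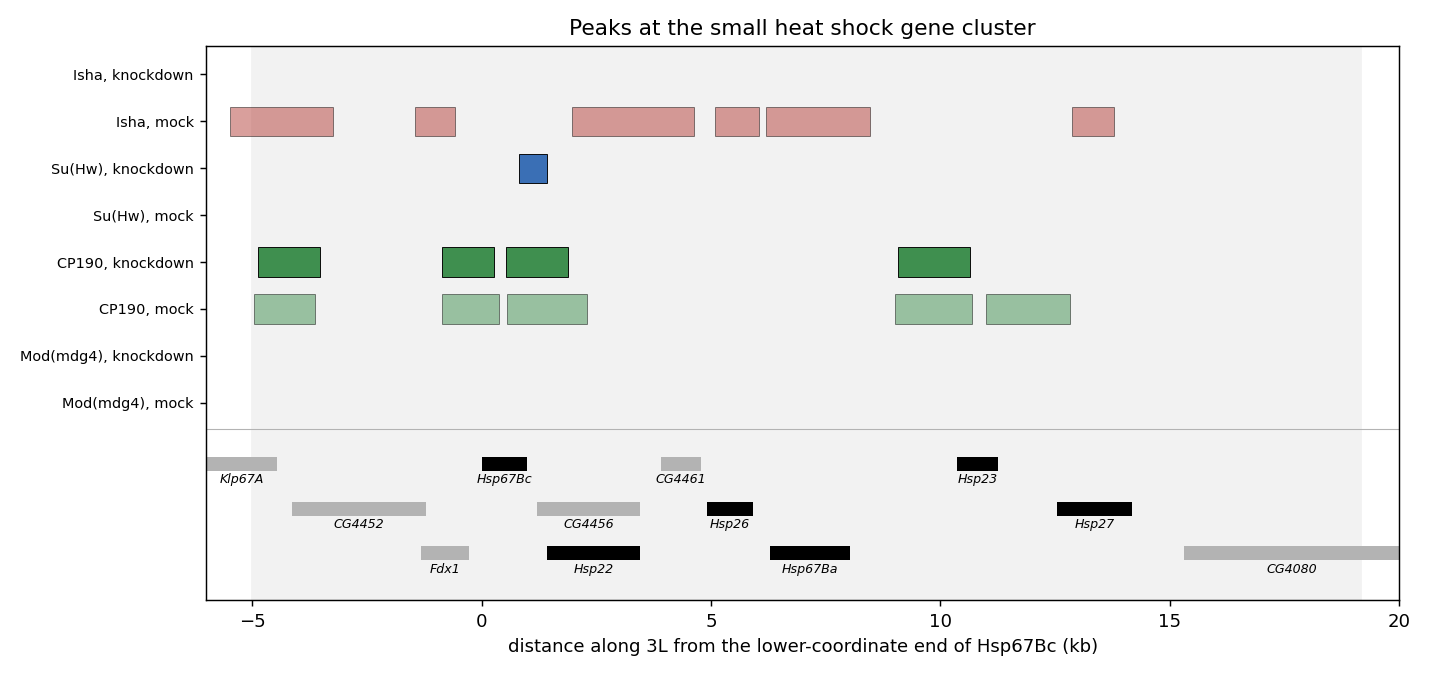
Peaks of the 4 proteins in knockdown (dark) and mock cells (pale) along the small heat shock cluster, as distance in kb from the lower-coordinate end of Hsp67Bc, with member genes in black, other protein-coding genes in grey and the windows shaded. The 6 mock Isha peaks have no knockdown counterpart, CP190 keeps 4 of 5 peaks, and a Su(Hw) peak of 611 bp appears in knockdown cells only.

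Hsp68 (3R:24055080-24057310) kept 1 of its 4 Isha peaks, and it was the narrowest. The window held 1 Isha peak in knockdown cells and 4 in mock cells, which covered 7.65% and 52.1% of it. The kept peak lay at the lower end of the gene, at 24054336 to 24055271 in knockdown cells and 24054328 to 24055216 in mock cells, so its edges moved by 8 bp and 55 bp. At 889 bp in mock cells it was wider than 20.7% of the mock Isha list, and 4.85% of the 618 mock Isha peaks within 10% of its width were kept. By contrast the peak that ran from inside Hsp68 over its upper end into SMC1, a cohesin subunit gene (24055666 to 24059260, 3595 bp), had no knockdown counterpart, while 43.2% of the 236 peaks of like width did. The other 2 mock Isha peaks lay at Pisd, the first of them also on the autophagy gene Atg6.

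All 3 CP190 peaks at Hsp68 were found in both treatments. They lay at Atg6 and Pisd (24050351 to 24052088 in knockdown cells and 24050214 to 24052076 in mock cells), just below Hsp68 (24053945 to 24054907 and 24053845 to 24054940) and over the upper end of Hsp68 and SMC1 (24057010 to 24058671 and 24056950 to 24058716). Each of the 3 overlapped a mock Isha peak, and the middle one also the Isha peak of knockdown cells. Neither Su(Hw) nor Mod(mdg4) was listed in the window. The nearest Su(Hw) peak was 14.2 kb away in knockdown cells and 14.2 kb in mock cells, and the nearest Mod(mdg4) peak 152.1 kb and 194.9 kb.

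Hsp83 (3L:3192969-3197059), the gene of the fly Hsp90, had a wide Isha peak at either end in mock cells. In knockdown cells a narrow one lay at the upper end and another 1724 bp below the gene. In knockdown cells Isha was listed at 3190644 to 3191244 (601 bp) and 3196985 to 3197851 (867 bp). In mock cells the peaks were at 3191460 to 3195273 (3814 bp) and 3196969 to 3200541 (3573 bp), which were wider than 94.5% and 92.9% of the mock list. At the upper end the peak was kept at 0.243 times its mock width: its lower edge moved by 16 bp and its upper edge fell by 2690 bp. At the lower end the 2 lists did not overlap, since the knockdown peak, in the neighbouring CG14965, stopped 215 bp before the mock peak began. Of the 199 mock Isha peaks within 10% of the width of the lower one, 46.7% were kept.

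CP190 was listed at both ends of Hsp83 in both treatments. The lower peak was nearly the same, 1605 bp wide in knockdown cells and 1600 bp in mock cells. The upper one was 1386 bp wide in knockdown cells and 2948 bp in mock cells, 0.470 times as wide. Its upper edge fell by 1261 bp, on the side where the Isha peak it overlapped was also shorter in knockdown cells. The lower CP190 peak, nearly unchanged, lay inside a mock Isha peak that no knockdown Isha peak overlapped. A Mod(mdg4) peak of 540 bp (3198162 to 3198701) lay 1102 bp above the gene, on CG32276, in knockdown cells only, and shared 291 bp with the CP190 peak there. Hsp83 was the 1 of 9 genes with Mod(mdg4) in knockdown cells only, and 2.19% of all genes without a mock Mod(mdg4) peak had one after knockdown. The peak was wider than 2.47% of the knockdown Mod(mdg4) list, and in mock cells the nearest Mod(mdg4) peak to Hsp83 was 70.0 kb away. No Su(Hw) peak lay beside it: the nearest to the gene was at 13.9 kb in knockdown cells and 13.8 kb in mock cells.

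Hsc70-4 (3R:15242687-15246614), whose protein among other tasks strips clathrin from vesicles, had no Isha peak in knockdown cells and 3 in mock cells. In mock cells 1 spanned the lower end of the gene and its neighbour tefu, the fly ATM kinase gene (15241566 to 15242908, 1343 bp), and 2 of 820 bp each lay inside the gene (15244216 to 15245035 and 15245456 to 15246275). The first shared 1212 bp with a CP190 peak and the inner ones none. Where mock cells had that CP190 peak as a single interval of 2300 bp (15241697 to 15243996), knockdown cells had 2 peaks of 1213 bp and 794 bp within the same limits, with 36 bp between them. The nearest Isha peak after knockdown was 27.1 kb from the gene.

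Hsc70-4 was also the only member with Su(Hw) in reach in both treatments. A pair of Su(Hw) peaks lay above the gene at Amt and CG42404, at 15249049 to 15250251 and 15251017 to 15252674 in knockdown cells and at 15248943 to 15250420 and 15251038 to 15252331 in mock cells. The first overlapped a CP190 peak in both treatments, 1217 bp wide in knockdown cells and 1424 bp in mock cells, and the second lay on the limit of the window, 5 kb above the gene at 15251614. Isha was not at either site in mock cells, 2667 bp from the nearer one.

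**Figure D4:**
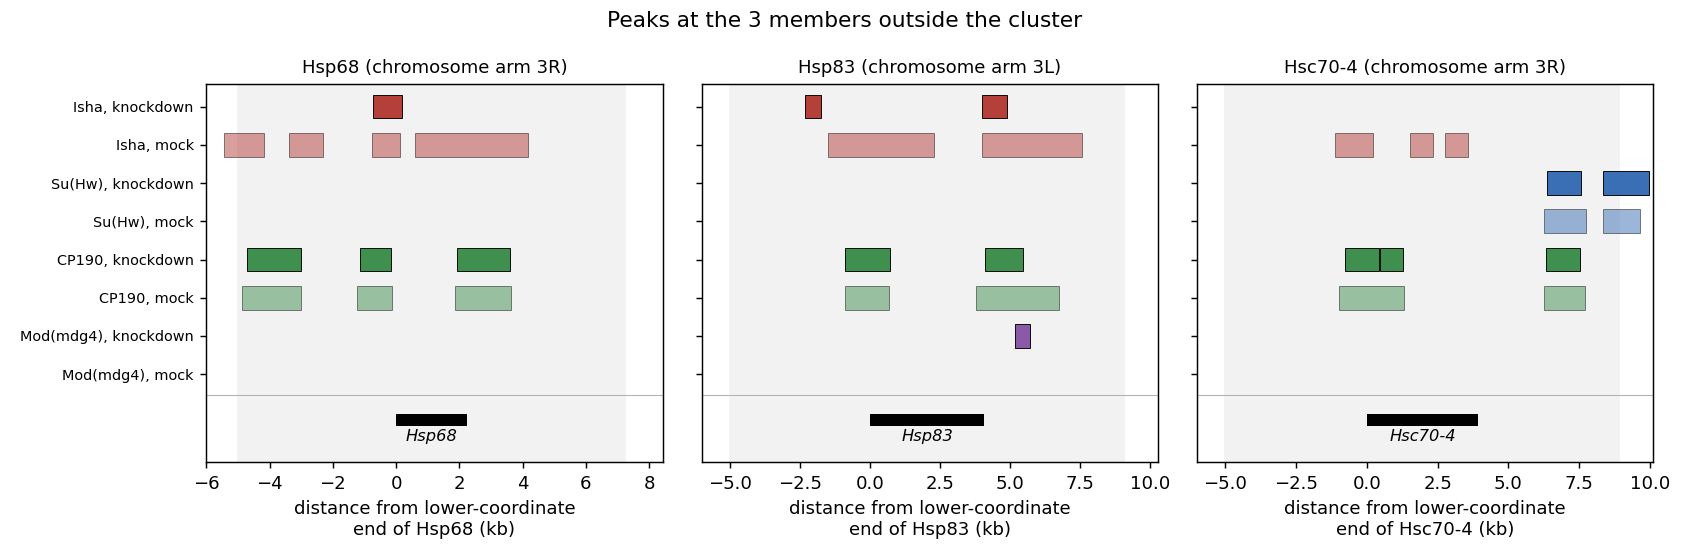
Peaks of the 4 proteins in knockdown (dark) and mock cells (pale) at Hsp68, Hsp83 and Hsc70-4, as distance in kb from the lower-coordinate end of each gene, with the gene in black and its window shaded. At Hsp68 an Isha peak of 936 bp in knockdown cells matches one of 889 bp in mock cells, at Hsp83 the upper Isha peak is 867 bp wide in knockdown cells and 3573 bp in mock cells, and at Hsc70-4 no Isha peak is left.

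Counted once each, the windows held 3 Isha peaks in knockdown cells and 15 in mock cells, and 12 CP190 peaks in each. Of the 15 mock Isha peaks 2 were kept (13.3%, Wilson interval 3.74 to 37.9%), against 18.9% of the whole list, and of the 12 mock CP190 peaks 11 were (91.7%, 64.6 to 98.5%), against 93.8% of the whole list. Both mock Su(Hw) peaks were kept, so that 0 of 1 genes with mock Su(Hw) was left without it, against 8.45% of all such genes. These intervals are at 95% and cover counting error over neighbouring peaks only. The base pairs under Isha peaks were 2404 in knockdown cells and 26188 in mock cells, a ratio of 0.0918, with 0.208 over the whole lists. For CP190 they were 15976 and 20773 bp, a ratio of 0.769, with 0.868 over the whole lists. Of the 12 pairs of overlapping CP190 peaks 10 were narrower in knockdown cells, against 87.8% of all 7958 pairs, and the median ratio was 0.901, against 0.846 over all pairs. Among the 10 are both knockdown peaks set against the single mock peak at Hsc70-4.

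**Figure D5:**
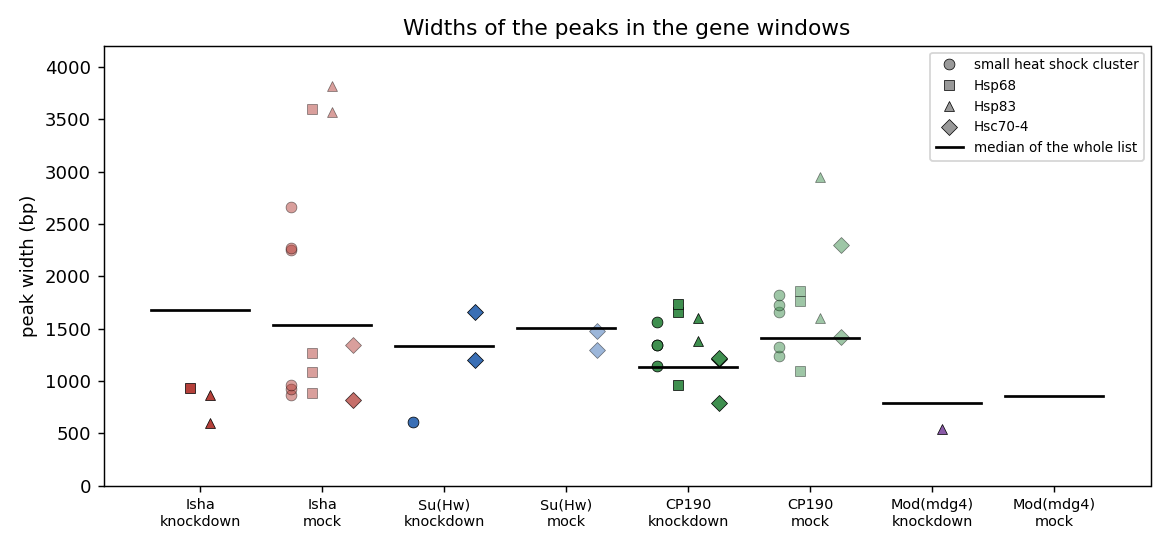
Width in bp of every peak in the windows, by list and place, with the median of the whole list as a line. The 3 Isha peaks of knockdown cells (601 to 936 bp) lie below the list's median of 1676 bp, the 15 of mock cells run from 820 to 3814 bp, and the Su(Hw) and Mod(mdg4) peaks that appear after knockdown are 611 and 540 bp wide.

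At an overlap of 1 bp or more, the share of mock Isha peaks with CP190 was near that of the whole list. In the windows 10 of 15 overlapped a mock CP190 peak (66.7%, Wilson interval 41.7 to 84.8%), against 67% (3171 of 4735) of the whole list. Seen from CP190, Isha was at 9 of 12 mock peaks (75.0%, 46.8 to 91.1%), against 39.0% of the whole list. The 12 peaks lie at 4 places, and mock Isha covered a median of 52.1% of the member windows against 10.2% over all genes. The genes were chosen with earlier results known, so the interval is no test of a difference from the whole list. The 5 Isha peaks without CP190 all lay on member genes, at Hsp26, Hsp67Ba, Hsp27 and the 2 inside Hsc70-4, and 0 of 5 were kept, while 10.2% of the 1564 mock Isha peaks without CP190 in the whole list were. The size of the shared share depends on its definition: 4 of 15 met 50% reciprocal overlap and 1 of 15 had midpoints within 250 bp. Neither definition was applied to the whole list, so these counts have no share to stand beside. The midpoints of 3 of 3 Isha peaks in knockdown cells and 9 of 15 in mock cells were within 500 bp of the end of a protein-coding gene, against 70.5% and 57.2% of the whole lists, and those of 10 of 12 CP190 peaks in either treatment, against 51.0% and 50.3%.

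Just inside the 5 kb limit lay a knockdown CP190 peak 4935 bp from Hsp22, the knockdown Su(Hw) peak 4.86 kb from Hsp67Ba and a mock Isha peak 4840 bp from Hsp67Ba. The mock counterpart of that CP190 peak fell outside the Hsp22 window, which held 3 CP190 peaks in knockdown cells and 2 in mock cells. Just outside lay mock Isha peaks 5.69 kb below Hsp68 and 6000 bp below Hsp67Bc, and CP190 peaks of both treatments 6.38 to 6.77 kb below these genes. On the genes themselves Isha was listed for 2 of 9 in knockdown cells and 7 of 9 in mock cells (11.3% and 43.6% of all genes), and CP190 for 6 and 7 (56.0% and 54.9%). Su(Hw) was listed on 2 and 0 of the gene spans (15.8% and 17.6% of all genes), and Mod(mdg4) on 0 in either treatment (5.42% and 5.92%).

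By presence in the 8 lists, Hsp23 and Hsp27 shared a common pattern, mock Isha with CP190 in both treatments, which 2965 of 13922 genes had (21.3%), among them Hsp70Aa, Hsp70Ab, Hsc70-2, Hsc70-3 and Hsc70-5. Hsp68 had that pattern with Isha in both treatments, as did 2148 genes, among them Hsf, Hsc70Cb, DnaJ-1, Hop and Trap1. The pattern of Hsp22, Hsp26, Hsp67Ba and Hsp67Bc, with Su(Hw) in knockdown cells only, was found at 86 genes (0.618%), among them Hsp67Bb. Hsp67Bb and these members were in reach of the same Su(Hw) peak, which is thus counted more than once. The pattern of Hsp83, with Mod(mdg4) in knockdown cells only, was found at 8 genes (0.0575%). Hsc70-4 shared its pattern, with Su(Hw) in both treatments, with 874 genes, among them Droj2 and stv.

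The same was counted for 21 other genes of the heat shock and chaperone system, among them the heat shock factor gene Hsf, the Hsp70 genes, the mitochondrial chaperonin gene Hsp60A and the cochaperone gene DnaJ-1. Isha was within 5 kb of 7 of 21 in knockdown cells and 15 of 21 in mock cells, so that 8 of those 15 were left without it. Of all protein-coding genes 22.9% and 61.2% had Isha in reach, and 62.8% of those with mock Isha were left without it. The first 6 with a mock peak in the order of the list were Hsf, Hsp67Bb, Hsp70Aa, Hsp70Ab, Hsp70Ba and Hsp60A, of which Hsf, Hsp70Ba and Hsp60A each kept 1 mock peak, of 4, 2 and 3, by overlap with a knockdown peak. CP190 was in reach of 16 of 21 in knockdown cells and 15 in mock cells, against 80.7% and 79.1% of all protein-coding genes. Su(Hw) was in reach of 4 and 4, against 36.8% and 38.6%, and Mod(mdg4) of none in either, against 14.0% and 15.1%. The Hsp70 genes are near-identical copies, so their peaks are uncertain, and the placing of reads among them was not tested. Hsp67Bb lies in the small heat shock cluster and shares its peaks.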

How the data were processed

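The sources used here are GEO's labels and 8 deposited peak lists. Reads were handled with Bowtie2 2.4.1, SAMtools 1.9 and Picard 2.22.2 on dm6, per the submitters' processing notes. How peaks were called, at which threshold, and how both replicates were combined is not given in the sources used here. Every one of the authors' deposited lists holds chromosome, start and end, with no score, count or column per replicate, so no test across samples and no paired fit could be made, and the depth is unknown.

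Peaks on 2L, 2R, 3L, 3R, 4 and X were used as deposited, with positions counted from 1, and the 1 to 5 peaks on Y in each list were dropped. Groups were taken from the names of the lists, with "SwHw" read as Su(Hw). Gene spans came from a RefSeq table of Release 6, in which all 9 members and 21 other genes were found; Hop is listed as Stip1, Hsc70Cb as Hsp110, Hsp67Bb as CG4456 and Hsromega as lncRNA:Hsromega. A gene had a peak when any peak overlapped its span plus 5 kb on either side, and peaks were called shared at 1 bp or more. Backgrounds are the same counts over all 13922 protein-coding genes or whole lists. Genes named are the members, the genes under their peaks and, for the other genes, up to 6 examples in list order and those that share a member's pattern. Members and lists were chosen with earlier results of these data known. Python 3.11.15 with NumPy 2.4.6, pandas 2.3.3, SciPy 1.17.1 and matplotlib 3.10.9 were used, and the overlap steps were tested on simulated data. Alternatives were other windows, placing peaks by midpoint, only peaks as wide as the list's median, other definitions of a shared peak, and merging of near peaks. No promoter motif was searched.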

Additional observations from a re-analysis of the deposited data

How the results depend on the processing

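Of 47 recomputed counts whose reported value was above 0, 33 were within 1.5 times of it. Another 8, for Mod(mdg4) in mock cells, were 0 against a reported 0 and say little about stability. The counts of members with Isha in mock cells or CP190 in either treatment were all within 1.5 times of the reported ones. For CP190 in knockdown cells this held only at the limit. It was at 6 members in place of 9, both within the gene span and with 1 kb each side. In mock cells CP190 was at 7 and 8 members under these settings, in place of 9. With only peaks at least as wide as their list's median, Isha was at 0 members in knockdown cells in place of 2, Su(Hw) at 1 in knockdown cells in place of 5 and 0 in mock cells in place of 1, and Mod(mdg4) at 0 in knockdown cells in place of 1. Within the gene span, and again with 1 kb each side, Su(Hw) was at 2 members in knockdown cells and 0 in mock cells, and Mod(mdg4) at 0 in knockdown cells. Of 15 mock Isha peaks, 1 was kept in place of 2, and 4 overlapped CP190 in place of 10, with 50% reciprocal overlap. With midpoints within 250 bp, 1 was kept and 1 overlapped CP190. The stricter definitions of a shared peak were not applied to the whole lists, so whether such falls are ordinary was not tested.

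No paired analysis was possible because the lists hold no values per replicate, and for the same reason no replicate was left out. A stricter peak threshold was not run, since the lists hold no score. Counts rest on 4 places, and with no depth a missing peak cannot be told apart from a weak one.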

Other observations

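Among the 21 other genes, a few were singled out after their values were seen. Stip1, listed as Hop, is a cochaperone gene that links Hsp70 and Hsp90 proteins. It had 3 Isha peaks in reach in knockdown cells and 3 in mock cells, and 2 of the 3 mock peaks were kept. The Isha peak on the gene was 3566 bp wide in knockdown cells (2L, 293303 to 296868) and 4533 bp in mock cells (292153 to 296685). Hsp60A was the only one of the 21 with CP190 in knockdown cells and not in mock cells: the CP190 peak (X, 11107854 to 11109574) lay over the lower end of the gene, where Isha was listed at 11107945 to 11108760 in knockdown cells and 11107835 to 11109476 in mock cells. Hsromega, a stress-induced noncoding RNA gene, was the only one of the 21 that had Su(Hw) in mock cells (3R, 21295390 to 21296427) and not in knockdown cells. Its CP190 peak was kept, at 1821 bp in knockdown cells and 2801 bp in mock cells. At DnaJ-1 the Isha peak over the upper end of the gene was 1257 bp wide in knockdown cells and 2823 bp in mock cells.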
